A study of Drosophila melanogaster with 24 samples.

Results

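Whole larvae carrying 1 copy of the su(Hw)v chromosome, written su(Hw)/+, were compared with pooled wild-type larval RNA on 4 arrays, out of 24 arrays in the study. The members are the probes that gave a value on at least 3 of these 4 arrays, which were 8907 of the 14444 gene probes on the array: 7368 had all 4 values and 1539 had 3. They stand for 7548 named genes out of 11725. Of the remaining 5537 probes, 2127 gave no value on any of the 4 arrays. Each value was the log2 ratio of su(Hw)/+ to the pool, so that 1 stands for a doubling and -1 for a halving, and each mean was tested against 0 with limma. By the labels these larvae had the su(Hw)v chromosome, marked with w and with the transposon P[CaS X/K5.3], over one of wild-type Oregon R (Or). They came from an outcross to Oregon R of a stock with p[CasX/K] and the balancer TM6B, Tb, and non-Tubby larvae were kept. Larvae were taken at the soft white pre-pupal stage, 10 or 20 to an extraction, and their sex is not given in the sources used here. For the same su(Hw)v background the paper names a construct that includes the gene RpII15, now Polr2I. The other larval genotypes were Df/+, in which the deletion Df(3R)ED5644 lay over an Oregon R chromosome, and the null su(Hw)/Df, in which the su(Hw)v chromosome lay over that deletion. All 3 genotypes, with 4 arrays each, were set against the same pool, which was made from 18 Oregon R collections by a separate large-scale extraction. The pool is 1 control RNA, so that no ratio includes its own spread, and the genotype, the outcross background and the extraction cannot be told apart in a ratio to it. They were whole animals, so that fewer cells of a type and less RNA per cell cannot be told apart either.

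Suppressor of Hairy-wing, Su(Hw), is a zinc finger protein that binds DNA at insulators, elements that can block an enhancer from acting on a promoter when they lie between them. With Mod(mdg4) and CP190 it forms the complex that acts at the gypsy retrotransposon, and flies without it are female sterile but otherwise viable. Mutations of su(Hw) are recessive, and a heterozygote serves as a control for the chromosomes and transgenes of the null. The end of larval life is a time when the fat body stores proteins for metamorphosis, when the midgut ceases to digest and when the cuticle is prepared for the puparium under the steroid ecdysone.

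The arrays held values for 9110 to 10470 of the gene probes (63.1 to 72.5%). The genotype was labelled with Cy3 on replicates 1 and 3 and with Cy5 on replicates 2 and 4, with array medians of 0.14 and 0.27 in Cy3 and -0.11 and -0.01 in Cy5. Across probes, arrays of the same dye correlated with r of 0.75 and 0.64 and arrays of opposite dyes with r of 0.48 to 0.55. These correlations describe probes of shared RNA pools and are no test. Over the members the median ratio was 0.08.

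In su(Hw)/+ larvae 2522 of 8907 probes differed from the pool at limma's adjusted p under 0.05, which is 28.3% of those tested, and 3671 did at an unadjusted p under 0.05. Of these, 1303 (14.6%) were higher and 1219 (13.7%) lower. Most of the differences were small, with a median size of 0.65 on the log2 scale. A ratio of at least 1 was reached by 128 higher probes (1.44%) and a ratio of -1 or less by 272 lower probes (3.05%). Of the called probes 2441 had the same sign on every array that measured them. With each array centred on its median the split moved to 900 higher and 1374 lower, so the share of calls that were higher fell from 51.7 to 39.6%. Without replicate 3, 1575 probes were called. The shares of all probes called, 14.6% higher and 13.7% lower, are those against which the counts of each gene list are read here.

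The su(Hw) transcript gave -0.86, -0.61, -0.42 and -0.28 on replicates 1 to 4, a mean of -0.54 ± 0.25 (SD, n = 4). All 4 arrays lay below 0. The mean passed the test (standard error 0.18, limma's adjusted p = 0.0361) but did so only with all 4 arrays, since leaving out any 1 of them gave adjusted p-values from 0.0506 to 0.149. Df/+ larvae, which lack 1 copy of su(Hw), had -0.53, -0.41, -0.31 and -0.07, so that the arrays of the heterozygotes overlapped (difference -0.21, exact permutation test, 2-sided, p = 0.257). Within same-numbered pairs su(Hw)/+ lay below Df/+ in all 4, with differences of -0.33, -0.20, -0.12 and -0.21 (exact paired permutation test, 2-sided, p = 0.125, the smallest that 4 pairs allow). In su(Hw)/Df the arrays lay at -2.76, -2.19, -3.36 and -3.36, all below every su(Hw)/+ array (difference 2.37, exact permutation test, 2-sided, p = 0.0286, the smallest that 70 splits allow). Of 13 insulator protein genes tested, 0 rose and 2 fell, namely su(Hw) and Ibf2, a partner of Ibf1 in insulator binding, whose mean was -0.69 ± 0.16 (SD, n = 3). Ibf2 was not called without replicate 4. Cp190 (-0.27, adjusted p = 0.0742), mod(mdg4) (0.07, adjusted p = 0.78), CTCF (0.51, adjusted p = 0.0513) and BEAF-32 (0.33, adjusted p = 0.0761) did not pass the test.

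Polr2I, which encodes a small subunit of RNA polymerase II and lies next to su(Hw), gave 1.36, 1.05, 1.60 and 1.13. Every array was more than doubled, with a mean of 1.29 ± 0.25 (SD, n = 4, standard error 0.14, adjusted p = 6.14e-05). In Df/+ larvae its arrays lay between -0.94 and -0.45, all below 0, and in su(Hw)/Df between 0.65 and 1.29. Polr2I was thus above the pool in both genotypes with the su(Hw)v chromosome and its construct, and below it in Df/+. Df/+ lacks that chromosome and also has the deletion, which takes out the adjoining su(Hw). The part of the construct and of the deletion in these values was not tested. Of the other RNA polymerase II subunits tested, Polr2L (-0.62 ± 0.21, adjusted p = 0.00415) and Polr2E (-0.39 ± 0.20, adjusted p = 0.0437) fell, the latter not called when any 1 array was left out, and 4 were not called.

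Of the 13 genes within 6 places of su(Hw) on chromosome arm 3R, itself included, 7 were tested. Apart from Polr2I and su(Hw), ATPsynE, a subunit of the mitochondrial ATP synthase, was called, at -0.40 ± 0.17 (adjusted p = 0.0254), and it lost the call without replicate 1, 3 or 4. In Df/+ it lay at -1.07 ± 0.04 and in su(Hw)/Df at -1.23 ± 0.29 (SD, n = 4 each). The eye colour gene red gave 0.06, 0.44, 0.48 and 0.26 in su(Hw)/+ and -0.40, -0.51, -0.47 and -0.59 in Df/+, with no overlap (difference 0.80, standard error 0.16, adjusted p = 0.0576). The values of trx, which encodes a histone methyltransferase (0.09 ± 0.58), Afti (-0.02 ± 0.51) and CG14839 (-0.14 ± 0.33) spread across 0. The white gene w, an eye pigment transporter that marks many transgenes, rose to 0.65 ± 0.32 (SD, n = 4, adjusted p = 0.00469), beside 1.12 in Df/+ and 2.31 in su(Hw)/Df.

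**Figure D1:**
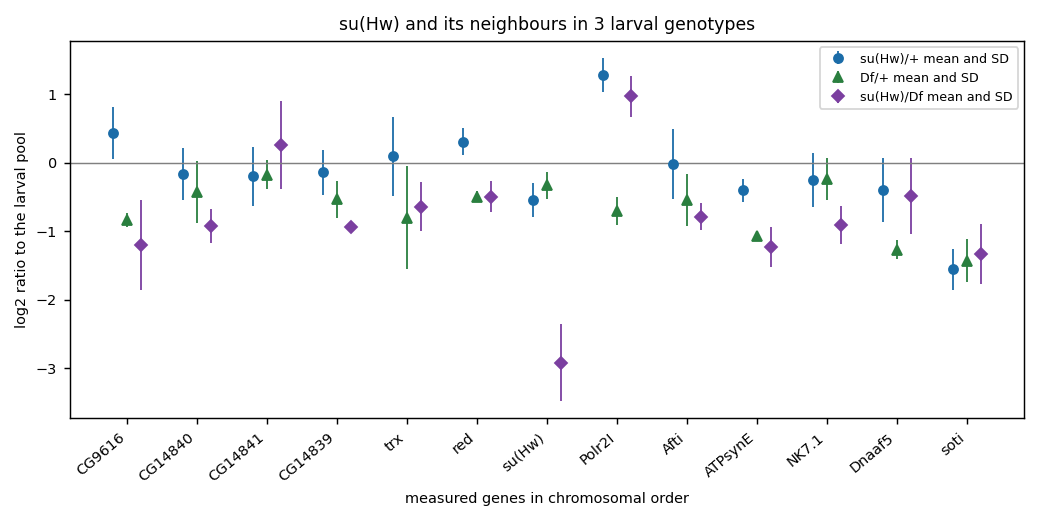
Mean log2 ratio to the larval pool (vertical axis) with SD for su(Hw) and the measured genes around it, in chromosomal order, in 3 larval genotypes with up to 4 arrays each. su(Hw) lay at -0.54 in su(Hw)/+, -0.33 in Df/+ and -2.92 in su(Hw)/Df, and Polr2I at 1.29, -0.71 and 0.97.

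The largest rise among named genes was that of LysB, a lysozyme of the digestive tract, with 1.96, 3.75, 3.60 and 2.93 on the 4 arrays, an 8.35-fold mean increase (log2 3.06 ± 0.81, adjusted p = 8.27e-05). Against the same pool LysB was at 2.87 in Df/+ and 4.97 in su(Hw)/Df. In su(Hw)/+ the other lysozymes did not share the rise. LysX gave -1.25, -1.35, -1.36 and -1.33 and fell (mean -1.32 ± 0.05, adjusted p = 0.00135), and LysS, at -1.15, 0.17, -1.23 and -0.20, was not called (adjusted p = 0.15). Lysozyme genes are close copies of each other, so a probe may read more than 1 of them. The midgut serine proteases Jon99Fi (2.29, 2.91, 2.78 and 1.82, mean 2.45) and Jon99Fii (1.89, 2.56, 2.41 and 1.46, mean 2.08) rose as well, and they too are near-identical copies. Of 27 midgut proteases and amylases tested, 5 rose (18.5%) and 2 fell (7.41%), with a list median of 0.15, and 3 rose without replicate 1, 2 or 3. Those that fell were alphaTry, a trypsin, at -0.85 and Jon65Aiii at -0.65, the latter lost without replicate 1 or 3.

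Among cytochrome P450s, the monooxygenases of hormone and xenobiotic metabolism, 14 of 40 rose (35%, against 14.6% of all probes) and 1 fell, with a median of 0.24. Without replicate 3 the number that rose was 7. Cyp12a4, a mitochondrial P450 known for insecticide resistance when overexpressed, gave 2.75, 2.02, 2.78 and 2.84, a 6.04-fold mean increase (log2 2.60 ± 0.39, adjusted p = 3.73e-06). Cyp309a1 reached 1.97 ± 0.48 and Cyp305a1 1.92 ± 0.28, with every array above 1. In Df/+ and su(Hw)/Df Cyp12a4 lay at 2.23 and 2.20 and Cyp309a1 at 1.91 and 2.88, while Cyp305a1 lay at 0.40 and 1.61. The P450 that fell in su(Hw)/+ was Cyp312a1 at -1.32 ± 0.20 (adjusted p = 4.07e-05). With the arrays centred, 10 P450s rose and 3 fell. Of 20 glutathione S-transferases, which conjugate toxins, 2 rose (10%) and 5 fell (25%), and 3 fell without replicate 1 or 3. GstD9 fell to -1.37 ± 0.37, GstD3 to -1.25 ± 0.23 and GstZ1 to -1.21 ± 0.33, whereas GstT4 rose to 1.22 ± 0.19.

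Other genes among the 15 largest rises were P5cr-2, a pyrroline carboxylate reductase of proline synthesis (2.34, 1.77, 2.75 and 2.11), GILT3, of the lysosomal thiol reductase family (2.13, 1.87, 2.07 and 1.75), and Lcp65Ab2, a larval cuticle protein whose arrays ranged from 1.16 to 3.40. CG9903 (mean 2.46 ± 0.49), CG30471 (2.10 ± 0.68), CG13962 (2.03 ± 0.15) and CG13315 (1.95 ± 0.28) rose with no array below 1. In Df/+ and su(Hw)/Df P5cr-2 lay at 1.76 and 2.56, GILT3 at 1.96 and 3.11 and CG9903 at 1.71 and 2.20, while CG13315 lay at -0.33 and 1.55. The spread over the su(Hw)/+ arrays was widest for PPO2, from 0.75 to 3.41, and Lcp65Ab2.

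**Figure D2:**
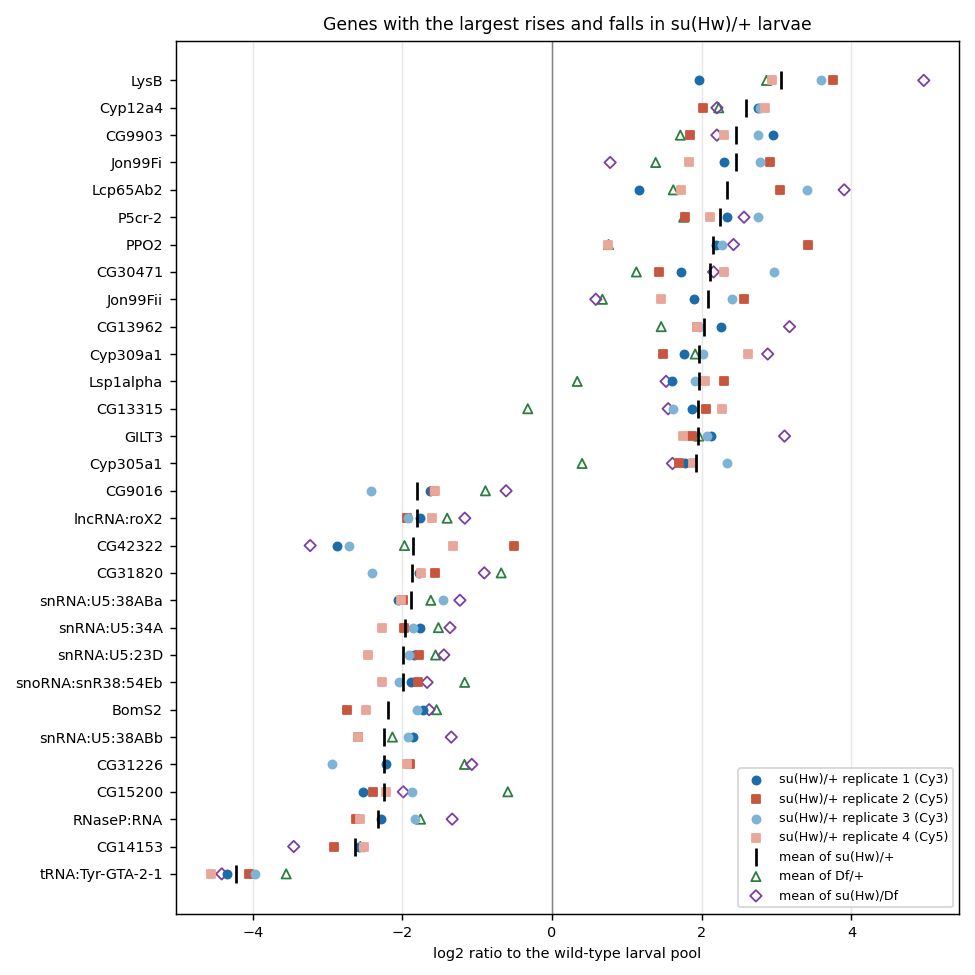
Log2 ratio to the larval pool (horizontal axis) on each su(Hw)/+ array for the 15 named genes with the highest and the 15 with the lowest means, with the su(Hw)/+ mean as a bar and the means of Df/+ and su(Hw)/Df as open symbols. LysB stood at 3.06 and tRNA:Tyr-GTA-2-1 at -4.23, and CG13315, at 1.95 in su(Hw)/+, was at -0.33 in Df/+.

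The lowest mean among named genes was that of a small structured RNA. The next lowest was CG14153, at -2.64, and CG15200 (-2.25), CG31226 (-2.25) and BomS2 (-2.19) were also among the 15 lowest. The probe for tRNA:Tyr-GTA-2-1 gave -4.34, -4.06, -3.97 and -4.55, an 18.8-fold mean decrease (log2 -4.23 ± 0.27, adjusted p = 3.73e-06). RNaseP:RNA, the RNA of the enzyme that trims tRNA precursors, gave -2.28, -2.63, -1.84 and -2.56 (mean -2.33, 5.02-fold lower). All 15 probes tested for snRNA (6), snoRNA (4), tRNA (3), RNase P RNA (1) and ribosomal RNA (1) were called lower, with a median of -1.54 and a range from -4.23 to -0.72, against 13.7% of all probes. The spliceosomal U5 RNAs lay between -2.24 and -1.88, but their 4 copies are alike in sequence and may share signal. In Df/+ and su(Hw)/Df, measured against the same pool, the medians of the same 15 probes were -1.48 and -1.35. In su(Hw)/+ wing discs their median was 0.06. The discs were measured against another pool, and by the paper their RNA was amplified, whereas larval RNA was labelled directly. The part of this in the contrast was not tested. The medians thus lay below the larval pool in all 3 larval genotypes, and the part of the pool's separate extraction in this was not tested.

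Long non-coding RNAs were also low, with 8 of 11 lower and 0 higher. roX2, an RNA of the dosage compensation complex that coats the male X chromosome, gave -1.76, -1.93, -1.93 and -1.61 (mean -1.81 ± 0.16, adjusted p = 0.000133), and roX1 gave -1.13, -1.08, -1.98 and -1.08 (mean -1.32 ± 0.44, adjusted p = 0.00107). Both are made chiefly in males. The stress-inducible nuclear RNA Hsromega gave -0.58, -0.96, -1.93 and -1.04. In Df/+ and su(Hw)/Df larvae, against the same pool, the medians of the long non-coding RNAs were -0.55 and -0.61. There roX2 lay at -1.40 and -1.17, roX1 at -0.98 and -0.84, and Hsromega at -1.65 and -1.15. In su(Hw)/+ discs roX2 was at 0.50 and roX1 at 0.80.

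**Figure D3:**
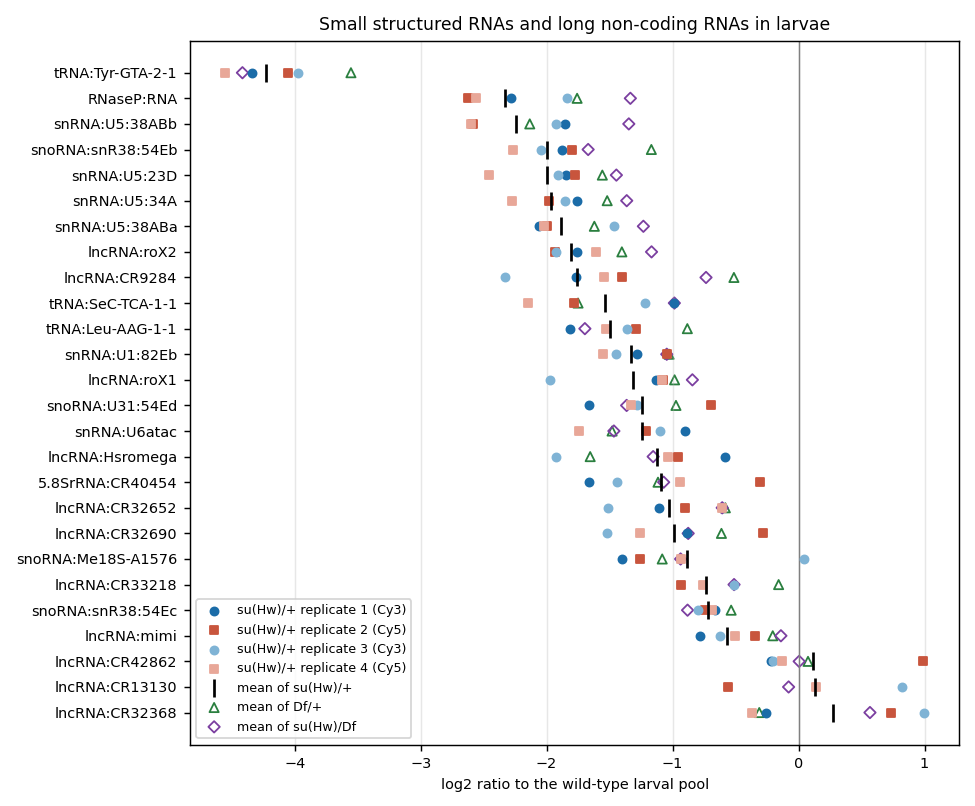
Log2 ratio to the larval pool (horizontal axis) of 15 small structured RNA and 11 long non-coding RNA probes on each su(Hw)/+ array, with the means of the other larval genotypes as open symbols. All 15 small RNA means lay at -0.72 or below.

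Genes of the male germ line were low. Of 17 testis and spermatogenesis genes tested, 11 fell and 0 rose (64.7% called, against 28.3% of all probes), with a median of -0.68. The sperm protein gene dj gave -1.38, -1.56, -1.98 and -1.49 (mean -1.60 ± 0.26), Mst87F gave -1.39, -1.34, -2.19 and -1.42 (mean -1.59 ± 0.40), and the protamine gene ProtA gave -2.12, -1.34, -1.71 and -0.80 (mean -1.49 ± 0.56). The meiotic regulator bol (-1.25 ± 0.27) and ocn (-1.38 ± 0.52) fell with them. The list median was -0.97 and -1.17 on the Cy3 arrays and -0.70 and -0.53 on the Cy5 arrays, and it was -0.43 in Df/+ and -0.32 in su(Hw)/Df. Among 60 respiratory chain and ATP synthase genes 20 fell (33.3%) and 5 rose (8.33%), and without replicate 3 the counts were 12 and 2. The lowest were COX4L (-1.70, -1.43, -2.25 and -1.26, mean -1.66), ATPsynGL (mean -1.30), COX6CL (-1.30) and COX7AL (-1.23), each a paralog of a standard subunit. Of the standard subunits, UQCR-Q fell to -0.73 ± 0.16 and ATPsynC to -0.58, while ND-75, of complex I, rose to 0.95 ± 0.44 and ATPsynB to 0.62 ± 0.14. The translation factors eIF4E4 (-1.34 ± 0.31), eIF4E5 (-0.73) and eIF4E3 (-0.73) fell, among them forms known from the testis, while eIF3a rose to 0.74 ± 0.17, so that 2 of 14 translation factors rose (14.3%) and 5 fell (35.7%). Without replicate 3 only 1 of the 14 fell. The call was lost for eIF4E5 without replicate 2 or 3 and for eIF4E3 without replicate 3.

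The proteasome, which degrades ubiquitinated proteins, had calls both ways. Of 37 subunit genes 13 rose (35.1%) and 5 fell (13.5%, near the share of all probes), with a median of 0.20. The 13 that rose were standard subunits, among them the regulatory ATPases Rpt6 (0.65, 0.82, 0.65 and 1.21, mean 0.83) and Rpt2 (0.74 ± 0.21), and the lid subunits Rpn8 (0.78 ± 0.31) and Rpn7 (0.76 ± 0.33). Those that fell were Prosbeta5R2, Prosbeta4R2, Rpn12R, Prosalpha6T and Rpn13R, with means from -0.94 to -0.51. All 5 are duplicate forms of a subunit, and 4 of them (all but Rpn12R) lost the call without at least 1 array, so that 2 or 3 fell without any 1 of them.

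The X chromosome and chromosome 4 stood apart from the large autosomal arms. On the X, 239 of 1206 probes were higher (19.8%) and 109 lower (9.04%), with a median of 0.19, while on 2L, 2R, 3L and 3R from 13.3 to 15.7% were higher and from 12.9 to 16.8% lower, with medians from 0.01 to 0.10. The X median was above that of each of these arms on all 4 arrays. On chromosome 4, 0 of 48 probes were higher and 24 were lower (50%), with a median of -0.37 and array medians between -0.54 and -0.34. Without replicate 3 the X had 133 higher and 66 lower, and chromosome 4 had 13 lower. Of the 48 probes of chromosome 4, 45 had a mean below 0 and 27 were below 0 on every array, and the means ran from -0.95 to 0.89. Chosen after their values were seen, the lowest were Ephrin, a guidance ligand (-0.72, -0.94, -1.12 and -1.01), the semaphorin receptor gene PlexB (mean -0.77) and the transcription factor gene zfh2 (-0.76). The Hedgehog effector ci, on the same chromosome, fell to -0.62 ± 0.17. Chromosome 4 had medians of -0.42 in Df/+ and -0.37 in su(Hw)/Df against the same pool, and of -0.03 in su(Hw)/+ discs. The X had medians of 0.10 in Df/+ and 0.15 in su(Hw)/Df. Both were above those of 2L, 2R, 3L and 3R, which were at most 0.004 in Df/+ and 0.05 in su(Hw)/Df. The larvae were not described as sexed. The testis genes, the roX RNAs and the X chromosome are given side by side here, and their part in each other was not tested.

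Genes of the larval fat body were higher. Of 9 fat body storage genes 8 rose (88.9%, against 14.6% of all probes) and 0 fell, with a median of 0.68. With the arrays centred 5 rose, as did 5 without replicate 3. Lsp1alpha, a hexamer subunit stored in the haemolymph for metamorphosis, gave 1.60, 2.29, 1.92 and 2.05 (mean 1.96 ± 0.29, adjusted p = 0.000133). Fbp2 (1.59, 0.91, 1.42 and 0.84, mean 1.19), Adh, the alcohol dehydrogenase (0.73 ± 0.22), Lsp1beta (0.65 ± 0.15) and Lsp2 (0.46 ± 0.29) followed with smaller rises. In Df/+ larvae, with the same pool, Lsp1alpha was at 0.34, Fbp2 at 0.12 and the list median at 0.19, and in su(Hw)/Df the median was 0.89. The direct difference of Lsp1alpha from Df/+ was 1.63 (adjusted p = 0.0576) and so missed the threshold.

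Genes of sugar metabolism lay above the pool. Of 19 genes of glycolysis and trehalose metabolism 9 rose (47.4%) and 0 fell, all 19 means were above 0, and the median was 0.52. Against the same pool this median was 0.47 in Df/+ and 0.82 in su(Hw)/Df. PyK, the pyruvate kinase of the last step of glycolysis, gave 1.13, 1.52, 1.25 and 1.32 (mean 1.31 ± 0.16, adjusted p = 3.37e-05). Pgm1 (1.22 ± 0.20), Ald1, the aldolase (1.01 ± 0.24), and Pgk (1.00 ± 0.35) were about doubled. Of 15 citric acid cycle genes 7 rose (46.7%; 4 of 15 without replicate 3) and 0 fell, led by Scsalpha1 (1.28, 0.75, 1.21 and 1.10, mean 1.09) and followed by Fum1 (0.90 ± 0.59) and Mdh1 (0.75 ± 0.24). Of 21 lipid metabolism genes 6 rose (28.6%) and 1 fell. Mtpbeta, of mitochondrial fatty acid oxidation, reached 1.17 ± 0.22 and AcCoAS, acetyl-CoA synthase, 1.05 ± 0.36, while mdy, a diacylglycerol acyltransferase, fell to -0.48 and lost the call without replicate 2.

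Transcripts of the cytosolic ribosome were lower. Of 36 ribosomal protein genes 19 fell (52.8%, against 13.7% of all probes) and 1 rose, with a median of -0.37. The list median was -0.39 in Df/+ and -0.26 in su(Hw)/Df against the same pool. RpL28 gave -0.70, -2.07, -1.52 and -2.23 (mean -1.63 ± 0.69), RpS21 gave -0.78, -1.12, -1.20 and -1.04 (mean -1.03 ± 0.18), and RpL37-2 lay at -0.82 ± 0.32. The gene that rose, RpL34a (0.30 ± 0.05), lost the call when any 1 array was left out, and with the arrays centred 18 fell and 0 rose. The duplicate forms RpL22-like (0.42), RpL24-like (0.29) and RpS5b (0.53) were not called. Mitochondrial ribosomal proteins were near the shares of all probes, with 9 of 60 higher (15%) and 5 lower (8.33%) and a median of -0.01, from mRpL33 (-0.81 ± 0.26) to mRpL16 (0.78 ± 0.46).

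**Figure D4:**
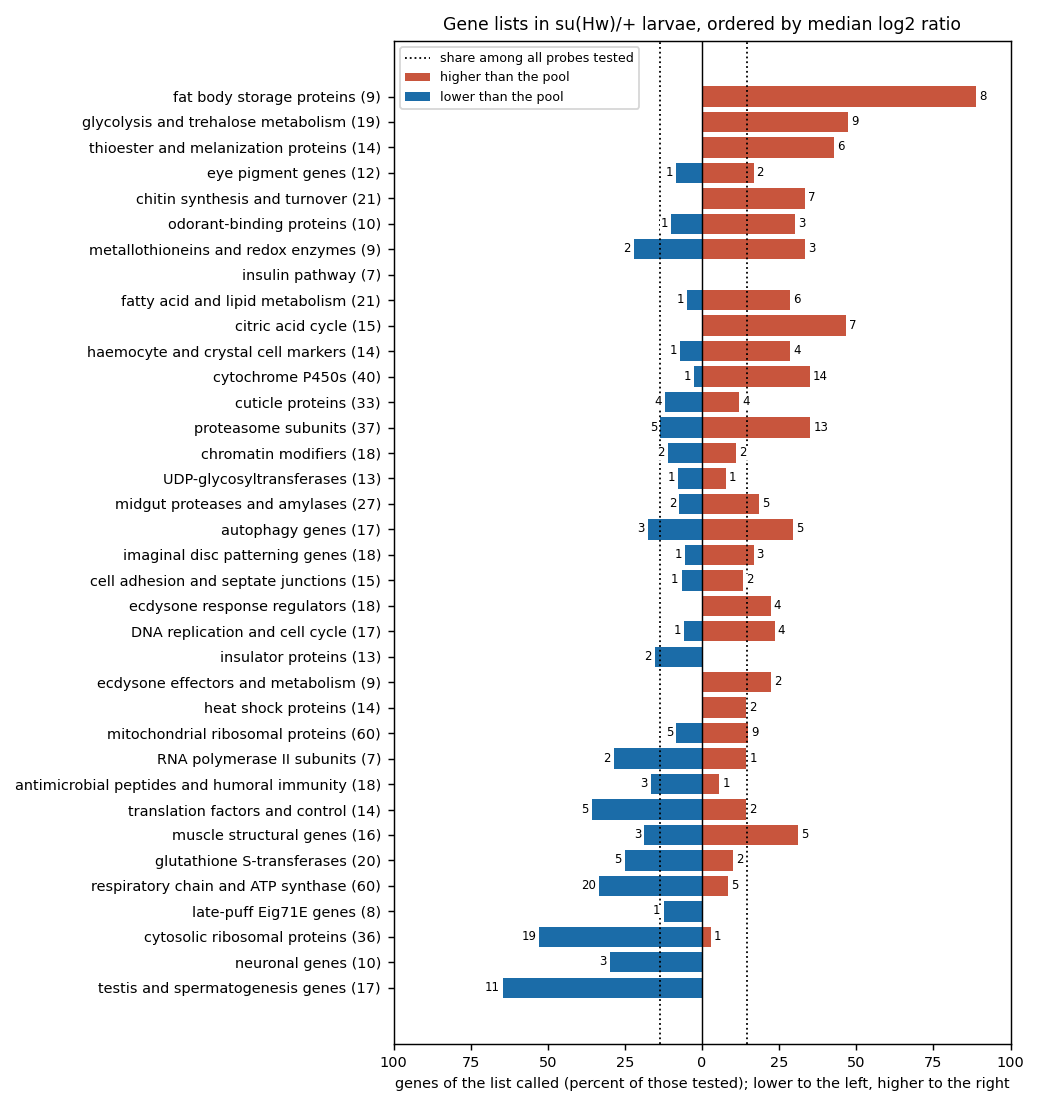
Share of tested genes called higher (to the right) and lower (to the left) than the pool in su(Hw)/+ larvae for gene lists with at least 7 genes tested, ordered by median log2 ratio, with the number called beside each bar, the number tested in brackets and dotted lines at the shares among all probes (14.6 and 13.7%). Fat body storage proteins (8 of 9 higher) and testis genes (11 of 17 lower) are the ends of the order.

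The blood cell markers were led by the prophenoloxidases, the crystal cell enzymes of melanization. PPO2 gave 2.19, 3.41, 2.27 and 0.75 (mean 2.15 ± 1.09, adjusted p = 0.00349) and PPO1 gave 0.73, 1.76, 1.36 and 0.73 (mean 1.15 ± 0.50, adjusted p = 0.0116), though PPO1 was not called without replicate 2 or 3. NimC2, a Nimrod receptor, rose to 0.88 ± 0.10. In the list 4 of 14 rose (28.6%), and vkg, a collagen IV subunit made by fat body and haemocytes, fell to -0.84 ± 0.15. Of 14 thioester and melanization genes 6 rose (42.9%) and 0 fell, but 2 rose without replicate 3 and 3 without replicate 4. Among the 6 were Spn27A, a serpin that holds back the melanization cascade (1.08 ± 0.37), and speck (1.13 ± 0.23). Of 18 genes of humoral immunity 3 fell (16.7%, near the 13.7% of all probes) and 1 rose. DptA, a diptericin induced by the Imd pathway, stayed at -0.71 or below on every array (mean -1.49 ± 0.62, adjusted p = 0.0214, lost without replicate 1, 2 or 3). The Toll ligand gene spz fell to -0.69 ± 0.09, nec, a serpin that restrains Toll signalling, rose to 0.79 ± 0.28, and BomS2, an immune-induced peptide outside this list, gave -1.73, -2.74, -1.80 and -2.49.

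Of 14 heat shock genes 2 were higher, which is 14.3% and near the 14.6% of all probes, and 0 lower. Hsp26, a small heat shock protein also expressed in development, gave 1.35, 1.08, 1.24 and 0.99 (mean 1.16 ± 0.16, adjusted p = 8.76e-05), and Hsp27 was at 0.41, not called without replicate 1 or 3. Metallothioneins moved apart: MtnA fell to -1.27 ± 0.17 (adjusted p = 1.08e-05) and MtnB rose to 0.88 ± 0.24 (adjusted p = 0.00329). Of 17 autophagy genes 5 rose (29.4%) and 3 fell (17.6%; 1 of 17 without replicate 1, 2 or 3). Atg4a gave 1.08, 1.17, 0.72 and 1.33 (mean 1.07), Atg9 was at 0.83 ± 0.43, and Atg8b, a duplicate of Atg8a, gave -1.74, -1.45, 0.06 and -1.18 (mean -1.08 ± 0.79), with replicate 3 alone above 0.

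Of 21 genes of chitin synthesis and turnover 7 rose (33.3%, against 14.6% of all probes) and 0 fell. The chitinase Cht5 gave 1.17, 0.93, 1.03 and 1.55 (mean 1.17 ± 0.27), and Idgf4, of the chitinase-like growth factors (0.99 ± 0.17), Cht7 (0.97 ± 0.13) and Idgf6 (0.85 ± 0.21) rose with it. Of 33 cuticle proteins 4 rose and 4 fell, each 12.1% and below the shares of all probes. Among 18 ecdysone response regulators 4 rose (22.2%) and 0 fell, with ImpL1 at 1.16 ± 0.43, ImpE3 at 1.08 ± 0.23 and the nuclear receptor gene Eip78C at 1.08 ± 0.20. The salivary glue genes, which the gland secretes at pupariation, had 0 called of 4 tested with means from -1.09 to -0.43 and adjusted p-values from 0.0694 to 0.424. Of 16 muscle structural genes 5 rose (31.2%; 2 of 16 without replicate 2 or 3), led by Mlp84B (1.20, 1.59, 1.46 and 1.63, mean 1.47) and the myosin heavy chain gene Mhc (0.55, 1.99, 1.63 and 1.07, mean 1.31), and 3 fell, namely Mf (-1.09 ± 0.15), Zasp66 (-0.90 ± 0.25) and bt, the last not called without replicate 1, 3 or 4. Of 10 neuronal genes 3 fell (30%) and 0 rose, with Csp at -0.82 ± 0.12 and Frq1 at -0.69 ± 0.22. In all, 255 of 718 listed genes were called (35.5%), 143 higher and 112 lower, and without replicate 3 the number was 160.

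The pool cancels where su(Hw)/+ is compared with Df/+, the other heterozygote. Only 23 of 8464 probes differed (0.272% of those tested), 15 of them higher in su(Hw)/+ (0.177%) and 8 lower (0.0945%), against 944 at an unadjusted p under 0.05. Of the 2491 probes called against the pool and also tested here, 21 were among the 23. With the replicate number as a block 36 probes were called. Leaving out 1 array gave from 7 to 19 calls, with 7 without su(Hw)/+ replicate 1 or Df/+ replicate 3, 8 without replicate 4 of either genotype, 9 without su(Hw)/+ replicate 3, 10 without Df/+ replicate 1 and 13 without su(Hw)/+ replicate 2. CG13315 gave 1.87, 2.06, 1.62 and 2.27 in su(Hw)/+ and at most 0.07 in Df/+ (difference 2.28, adjusted p = 0.005). Polr2I differed by 1.99 (standard error 0.19, adjusted p = 0.000581). PGRP-LA, of the peptidoglycan recognition proteins, gave 1.85, 1.48, 1.77 and 1.99 against values from -0.46 to 0.00 (difference 1.96, adjusted p = 0.000581). None of these arrays overlapped between the heterozygotes, but the genes were picked for the largest differences between these same arrays.

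Cyp305a1 (difference 1.52, adjusted p = 0.005), the sterol-binding protein gene Npc2b (1.30, adjusted p = 0.00342), Acf, which encodes a chromatin remodelling subunit (1.09, adjusted p = 0.0336), the nucleoporin gene Nup214 (1.09), GstT4 (1.07) and the odorant-binding protein gene Obp99c (0.89) were also higher in su(Hw)/+. So were CG13028 (1.36), CG2070 (1.29), CG16704 (1.12), vih, a ubiquitin-conjugating enzyme of mitosis (1.10), and CG31274 (1.08). Lower in su(Hw)/+ were CG15200 (-1.66), CG3397 (-1.48, adjusted p = 0.000819), Cyp12c1 (-1.25), CG32950 (-1.18) and CG10459 (-0.88). Among these, CG3397 lay above the pool in su(Hw)/+ (0.64 ± 0.08) as well as in Df/+ (2.12). In all, 7 of the 23 calls remained without each of the 8 arrays in turn, which among the genes named here were those of CG13315, Polr2I, PGRP-LA, Cyp305a1, Npc2b and CG3397, and the other genes named here lost theirs without at least 1 array. Of the probes higher than in Df/+, 10 of 14 with a known arm lay on chromosome 3, as did 3 of 5 of the lower ones and 3501 of all 7908 members with a known arm. For 12 of the 15 higher probes the mean of su(Hw)/Df was nearer to su(Hw)/+ than to Df/+. For the 8 lower probes this held in 4. The share of all probes for which it held was not taken, so that these counts have nothing to be read against.

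**Figure D5:**
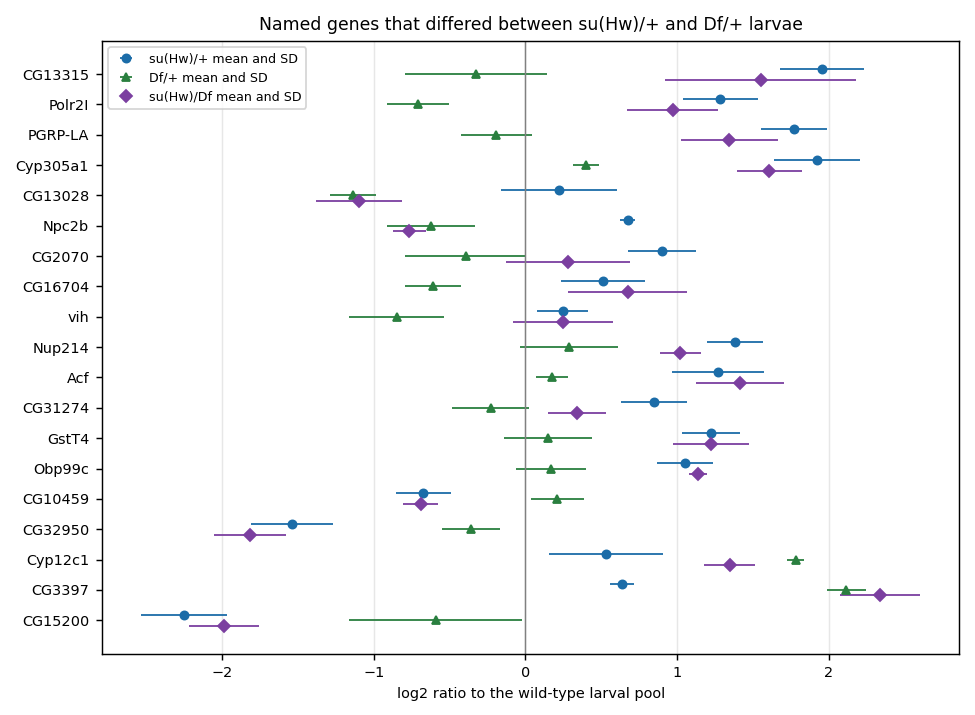
Mean log2 ratio to the larval pool (horizontal axis) with SD in su(Hw)/+, Df/+ and su(Hw)/Df larvae for 19 of the 20 named genes that differed between su(Hw)/+ and Df/+. Polr2I, PGRP-LA, Acf and GstT4 were high in su(Hw)/+ and in su(Hw)/Df and not in Df/+, whereas Npc2b, at 0.67 in su(Hw)/+, was at -0.77 in su(Hw)/Df.

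The same difference was read in wing discs, whose RNA, pool and labelling were separate. There 1 of 5928 probes differed between su(Hw)/+ and Df/+ (0.0169%), and 128 did at an unadjusted p under 0.05. It was Polr2I, with 0.82 ± 0.19 in su(Hw)/+ discs and -0.64 ± 0.19 in Df/+ discs (SD, n = 4 each, difference 1.46, adjusted p = 0.0117). Of the 23 probes that differed in larvae 12 could be tested in discs, and 9 of them had the same sign there. Acf lay at 0.91 ± 0.26 in su(Hw)/+ discs and 0.09 in Df/+ discs (difference 0.82, adjusted p = 0.999). The values of vih were 0.34 and -0.33, and the difference did not pass the test.

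The null su(Hw)/Df shares the su(Hw)v chromosome, has no wild-type su(Hw) and also carries the deletion, which su(Hw)/+ lacks. Against it 167 of 8431 probes differed (1.98% of those tested), 114 higher in su(Hw)/+ (1.35%) and 53 lower (0.629%). The part of the deletion's other genes in these differences was not tested. Leaving out 1 array gave 92 to 151 calls, with 92 to 96 where it was one of the su(Hw)/+ arrays, 105 without su(Hw)/Df replicate 2 and 96 without su(Hw)/Df replicate 3. The largest differences were in heat shock genes. Hsp70Bbb gave -0.38, 0.06, -0.18 and -0.54 in su(Hw)/+ and from 2.70 to 3.65 in su(Hw)/Df (difference -3.58, 11.9-fold, adjusted p = 0.000394), and Hsp70Ba (-3.49, adjusted p = 0.000102) and Hsp70Ab (-3.34, adjusted p = 0.000153), whose copies may share signal, and Hsp68 (-2.60) differed alike. In Df/+ these 4 genes lay between 0.70 and 1.37. CG14275 (-3.04) and CG13575 (-3.02) were lower in su(Hw)/+ as well, as were MtnB (-2.40) and w (-1.66).

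In the other direction, 111 of the 114 probes higher in su(Hw)/+ had a su(Hw)/Df mean below 0, which choosing them by this difference makes likely. Of these, 70 were not called against the pool in su(Hw)/+, 22 were called lower and 19 higher, where 13.7% of all probes were lower and 14.6% higher. CG6283 gave -1.30, -0.53, -0.88 and -0.73 against values from -4.93 to -2.91 (difference 3.20, adjusted p = 0.00115). Drsl5, of the drosomycin-like peptides (2.91), CG1468 (2.80), CG6277 (2.76) and CG8664 (2.62) came next. LysX differed by 2.62 (adjusted p = 0.000811), su(Hw) itself by 2.37 (adjusted p = 0.000298) and Cyp6d5 by 2.21 (adjusted p = 0.000102). Of the 167 calls 72 remained without each of the 8 arrays in turn. CG13575 lost its call without su(Hw)/+ replicate 1 or 2 or su(Hw)/Df replicate 3.

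In su(Hw)/+ wing discs 39 of 6559 probes differed from the disc pool (0.595% of those tested), 6 higher (0.0915%) and 33 lower (0.503%), with 406 at an unadjusted p under 0.05. Without replicate 1, 3 or 4 of the discs there were 20, 14 and 21 calls. Disc RNA was amplified and larval RNA was labelled directly, and the part of this in the number of calls was not tested. Of the larval calls 1666 could be tested in discs, and 950 had the same sign there. Probes called in both tissues numbered 20, of which 4 were higher in both, 10 lower in both and 6 higher in larvae and lower in discs. Those higher in both were hng3 (larvae 1.44 ± 0.25, discs 0.82 ± 0.31), Polr2I (1.29 and 0.82), Acf (1.27 and 0.91) and Unc-115b (0.70 and 1.17). All 4 lie on chromosome 3, as do 3501 of the 7908 members with a known arm. In Df/+ discs hng3 was at 0.09 and Unc-115b at -0.36. DptA led those lower in both, with -1.49 in larvae and -1.87, -3.09, -2.13 and -2.72 in discs. It lay at -2.48 in Df/+ discs and -2.39 in su(Hw)/Df discs. Among those lower in both, CG5171 alone lay above 0 in Df/+ discs, at 0.45.

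The 6 that were higher in larvae and lower in discs included Obp99c (1.05 ± 0.18 and -1.22 ± 0.44), CG13082 (1.01 and -1.16) and the fat body genes Fbp1 (0.69 ± 0.25, n = 3, and -3.45 ± 1.64, n = 4) and Lsd-1, which encodes a lipid droplet protein (0.42 and -0.84). The larval call of Fbp1 was lost without replicate 3, and it ranged from -5.79 to -2.09 on the disc arrays, and Lsp2, another fat body gene, was at -2.70 in discs. In Df/+ and su(Hw)/Df discs Fbp1 lay at -2.09 and -2.25, Obp99c at -0.62 and -0.63, and CG13082 at -0.89 and -0.99. Lsd-1 lay at -0.95 and -0.74 there, CG5697 at -1.11 and -1.11, and CG7860 at -0.40 and 0.31. The difference between the tissues was not tested.

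Dye orientation also left a mark. Over the 12 larval arrays 1074 of the 8907 probes (12.1%) had a dye effect, of which 137 were among the probes called against the pool. In su(Hw)/+ the absolute difference between the mean of the Cy3 arrays and the mean of the Cy5 arrays had a median of 0.29. Of the 2522 called probes 1 had dye means of opposite sign. CG42322, one of the 15 lowest, gave -2.88 and -2.72 in Cy3 and -0.51 and -1.33 in Cy5, and it lost its call without replicate 1 or 3.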

How the data were processed

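RNA of whole larvae was measured on 2-colour long-oligonucleotide arrays, 4 per genotype. By the paper's methods larval RNA took up the dyes directly as cDNA was made, whereas wing disc RNA was amplified. The authors deposited 1 log2 ratio of genotype to pool per spot. Their methods state that the slides were scanned on an Axon scanner, spots were found with Dapple, slides of a tissue were normalized together with VSN, and CyberT gave the statistics. No version is given in the sources used here. Dye swaps were already turned, the direction and the base of the logarithm were read from 1031 of 1031 su(Hw)/+ means within 0.01 of those in the paper's tables, and the arrays were not centred. Spot intensities were not used here, so signal over background is unknown, and the number of arrays limits the precision. All 24 arrays were assigned by their labels, and 0 value columns were unused. The members, gene lists and tests were chosen with earlier results of these data known.

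Of 15158 probes, the 714 with more than 1 spot were taken as controls and left out. Each probe kept had 1 spot, so no spots were averaged. Of 14444 probes 12658 had 1 gene symbol, 96 several and 1690 none. A RefSeq gene table of the Release 6 assembly held 12606 of those with 1 symbol and was used for names, RNA types, arms and gene order. The 3 genotype means of a tissue were fitted in 1 limma 3.58.1 model (R 4.3.3) with empirical Bayes moderation and Benjamini-Hochberg adjustment, with a threshold of 0.05, for probes with at least 3 values per genotype compared. The script was tested on simulated data. The disc comparison of su(Hw)/+ with Df/+ and the paired test of the su(Hw) transcript were added after the larval values were seen. The paper calls the arrays of a genotype independent biological replicates. Python 3.11.15 (numpy 2.4.6, pandas 2.3.3, matplotlib 3.10.9) made the tables and figures.

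Same-numbered su(Hw)/+ and Df/+ arrays deviated together from their genotype means over 6423 complete probes (r = 0.30, 0.12, 0.19 and 0.31), and they share dye orientation. By this the numbers were taken as pairs for the su(Hw) transcript. The main fit against Df/+, which gave its calls and adjusted p-values, had no pair term, and a fit with the replicate block was an alternative. The sample titles give only numbers and name no pairs, and the part of the shared dye in these correlations was not tested. For su(Hw)/Df the values were 0.21, 0.04, 0.21 and 0.54, and the numbers were not taken as pairs.

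Named genes were, among called probes with 1 symbol, 4 values and 1 sign, the 15 highest and 15 lowest means, su(Hw), Polr2I, w and genes within 6 places of su(Hw), called members of 42 gene lists, the lysozymes, the 5 largest differences each way from Df/+ and su(Hw)/Df, and genes called in both tissues. A gene in a list stood by its probe with most values. Lists count what passed the test, and no list was tested as a set. Alternatives were centring, scaling, a dye term, a replicate block, 4 of 4 values, the 4 su(Hw)/+ arrays alone with and without moderation, and each array left out. One gene that differed between su(Hw)/+ and Df/+ larvae is not reported here.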

Additional observations from a re-analysis of the deposited data

Results flagged for a closer look

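Single arrays stood far from the other 3 in 15 of 188 named genes of su(Hw)/+ larvae with 4 values (Dixon's criterion), and chance alone marks about 1 in 20 groups. Replicate 3 was the far array for roX1 (-1.98), CG9016 (-2.42), Mst87F (-2.19), eIF4E4 (-1.81), Rpn12R (-0.079) and snRNA:U5:38ABa (-1.46). Replicate 2 was the far one for Cyp12a4 (2.02), CG14153 (-2.92), ATPsynE (-0.15), hng3 (1.06) and eEF1gamma (0.73). Replicate 1 was the far one for CG13962 (2.25), Polr2L (-0.94), GstD3 (-0.91) and Obp99c (1.33). Of these genes ATPsynE lost its call against the pool when another array was left out.

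Every larval array lay above 0 and every disc array below 0 for Fbp1 (disc mean -3.45), Obp99c (-1.22), CG13082 (-1.16), CG5697 (-1.05), Lsd-1 (-0.84) and CG7860 (-0.79) in su(Hw)/+. The difference between the tissues was not tested.

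The heterozygotes differed by a test of the difference itself for CG13315 (2.28), Polr2I (1.99), PGRP-LA (1.96), Cyp305a1 (1.52), CG13028 (1.36), CG15200 (-1.66), CG3397 (-1.48), Cyp12c1 (-1.25), CG32950 (-1.18) and CG10459 (-0.88), as su(Hw)/+ minus Df/+ on the log2 scale. The corresponding differences from su(Hw)/Df were 3.20 for CG6283, 2.91 for Drsl5, 2.80 for CG1468, 2.76 for CG6277, 2.62 for CG8664, -3.58 for Hsp70Bbb, -3.49 for Hsp70Ba, -3.34 for Hsp70Ab, -3.04 for CG14275 and -3.02 for CG13575.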

How the results depend on the processing

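Of the 2522 calls against the pool, 2095 remained in the same direction with the arrays centred, 2229 with the arrays scaled, 2522 with a dye term and 1933 on the 4 su(Hw)/+ arrays alone. Without moderation 605 probes were called, and leaving out 1 array gave 1575 to 2020. Against Df/+ the 23 calls became 53 with a dye term, 36 with the replicate block and 37 with 4 of 4 values, and 7 to 19 without 1 array. Against su(Hw)/Df the 167 calls became 290 with a dye term and 104 with the arrays scaled, and 92 to 151 without 1 array. The replicate block gave 3094 calls against the pool, 227 against su(Hw)/Df and 51 in discs. In discs the 39 calls became 0 without moderation and 14 to 34 without 1 array. The dye effect was called for 1555 probes with the arrays centred, in place of 1074. The su(Hw) transcript had -0.54 (adjusted p = 0.101) without moderation and -0.63 to -0.44 without 1 array. Of the listed genes 160 to 204 were called without 1 array, in place of 255. Values near 0 changed sign for Afti (0.00078 with the arrays scaled, -0.24 to 0.17 without 1 array) and trx (-0.14 to 0.31 without 1 array). Of 191 named genes called against the pool 123 kept the call without each array in turn, and 68 lost it without at least 1 (44, 37, 58 and 32 without replicates 1 to 4). Under centring 18 of the 216 named values lost their call. The cause was not tested.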
